A study of Mus musculus with 7 samples.

Results

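Cultures of newborn mouse hippocampus held a small number of cells that carried transcripts of choroid plexus epithelium. Candidate barcodes had 500 or more genes detected, with mitochondrial genes giving no more than 10% of their unique molecular identifiers (UMIs, each counting 1 captured transcript). The cells were selected on the values of 8 genes: each had at least 3 UMIs in all from Folr1, Kcne2, Kl, Cldn2 and Clic6, with at least 2 of these 5 genes detected, and under 10 UMIs in all from the motile cilium genes Ccdc153, Rsph1 and Meig1. The rule found 107 cells among 26709 filtered cells, which is 0.401%. The values of these 8 genes are therefore given below as a description with no test.

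The choroid plexus epithelium is a single layer of cells that hangs in the brain ventricles and makes cerebrospinal fluid. It moves sodium, chloride, bicarbonate and water from blood to fluid, takes up folate through the receptor Folr1, and secretes transthyretin (Ttr), the carrier of thyroid hormone and retinol in the fluid. In the embryonic forebrain it arises at the dorsal midline, beside the cortical hem and the hippocampal field, and it shares its origin with the ciliated ependymal cells that line the ventricles.

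Hippocampi of mice at postnatal day 0 were dissociated with trypsin, plated on coated coverslips in medium with serum and B-27 supplement, and profiled after 1, 3, 5 or 7 days in vitro (DIV) by droplet sequencing of transcript 3′ ends. DIV1 had 1 library and DIV3, DIV5 and DIV7 had 2 libraries each. All libraries share the dissection, the age and the medium, no genotype or treatment differs between the days, and the labels do not say whether the replicates came from separate cultures. The cell types that the labels list do not include choroid plexus.

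The 7 libraries held between 2838 and 5144 filtered cells, with median UMIs per cell between 7142.5 at DIV1 and 20267 in DIV3 replicate 1. The libraries shared between 12 and 37 barcodes per pair, and no barcode was selected in more than 1 library. DIV3 replicate 1 stood apart in 2 ways that bear on results below. Transcripts of the Y-linked genes Ddx3y, Uty, Kdm5d and Eif2s3y were found in 0 of its 22 selected cells and in 1 of its 5122 other cells, while Xist was found in all 22 selected cells. The interferon-induced gene Isg15 stood at 389 CPM (UMIs of a gene per 1000000 UMIs of the cells summed) over its other cells, against 13.1 to 63.6 CPM in the other 6 libraries.

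The label was checked first within the rule. Folr1 gave 610 of the 1072 UMIs that the 5 genes gave in selected cells, Clic6 gave 271, Cldn2 gave 159, Kcne2 gave 29 and Kl gave 3. The most frequent combination was Folr1 with Cldn2 alone, in 48 cells, followed by Folr1 with Clic6 in 24 cells and Folr1 with Cldn2 and Clic6 in 21 cells. Kcne2, a potassium channel subunit of the apical membrane, was seen in 14 cells and Kl, which encodes klotho, in 3 cells. Just inside the threshold were 31 cells with 3 UMIs from the 5 genes, of which 9 held any Ttr. Just outside were 49 cells with 2 UMIs from 2 genes, of which 9 also held Ttr.

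Ttr, which the rule did not use, fell into very unequal amounts among the selected cells. Of the 107 cells, 41 had no Ttr UMI, 14 had between 1 and 9, 10 had between 10 and 99, 15 had between 100 and 499, and 27 had 500 or more, up to 2231. A boundary of 10 Ttr UMIs, chosen after these values were seen, gives 52 Ttr-rich cells (48.6%, 95% exact interval 38.8 to 58.5%) and 55 Ttr-poor cells. The median Ttr was 529.5 UMIs in Ttr-rich cells and 0 in Ttr-poor cells, at median depths of 19132.5 and 12258 UMIs. For scale, 168 of 4735 neurons held a Ttr UMI. None held more than 2, and whether these came from free transcript or from droplets with more than 1 cell was not tested. Since Ttr is the best known product of this epithelium, the name choroid plexus epithelial cells is used below for the Ttr-rich cells alone, and the whole set is called the selected cells.

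**Figure D1:**
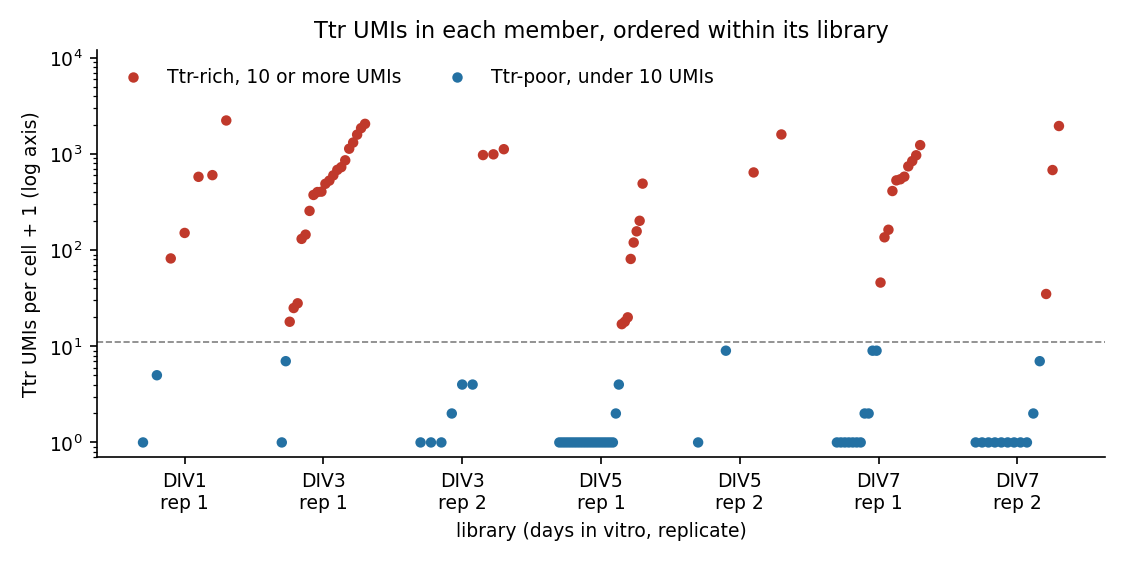
Ttr UMIs in each of the 107 selected cells, plotted as UMIs plus 1 on a log axis, with cells ordered by value within each of the 7 libraries. Red points are the 52 Ttr-rich cells, blue points the 55 Ttr-poor cells, and the dashed line marks 10 UMIs; DIV3 replicate 1 is nearly all red (20 of 22 cells) and DIV5 replicate 1 mostly blue (21 of 29 cells).

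Ttr-rich cells held a broad set of genes of the secretory epithelium. Among secreted proteins, Enpp2 (autotaxin, which makes lysophosphatidic acid) was detected in 84.6% of Ttr-rich cells, 30.9% of Ttr-poor cells and 24.9% of 1592 ciliated ependymal cells, the comparison class set by 10 or more UMIs of Ccdc153, Rsph1 and Meig1. Wfdc2, a secreted protease inhibitor of epithelia, was detected in 90.4%, 27.3% and 2.51% of the same groups. Ptgds, which makes prostaglandin D2 and is abundant in cerebrospinal fluid, was detected in 86.5%, 12.7% and 7.79%. In neurons these 3 genes were detected in 4.75% or fewer of the cells. With every cell thinned to 3000 UMIs, Enpp2 was detected in 44.2% of Ttr-rich cells, 17.0% of Ttr-poor cells and 8.16% of ciliated cells. For Enpp2 the order thus held at equal depth. Other detection shares here and below use all UMIs of each cell unless thinning is named.

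Most genes of ion and water transport named here were detected in more Ttr-rich cells than Ttr-poor or ciliated cells. The sodium-potassium-chloride cotransporter Slc12a2 was detected in 88.5% of Ttr-rich cells, 40.0% of Ttr-poor cells and 29.7% of ciliated cells. Slc4a2, an anion exchanger that brings chloride into the cell, was detected in 88.5%, 52.7% and 32.1%. The potassium channel Kcnj13 was detected in 28.8% of Ttr-rich cells, in 0 of 55 Ttr-poor cells, which allows up to 5.45% of cells with a UMI and sets no limit on cells that express the gene, and in 0.942% of ciliated cells. The water channel Aqp1 was detected in 23.1% of Ttr-rich cells, in 0 of 55 Ttr-poor cells and in 1.44% of ciliated cells. The bicarbonate transporter Slc4a5 was detected in 17.3% of Ttr-rich cells and in 0 of 55 Ttr-poor cells, but after thinning in 1.92% of Ttr-rich cells, near the level of a lone UMI. The cation channel Trpm3 was detected in 80.8% of Ttr-rich cells, 21.8% of Ttr-poor cells and 1.44% of ciliated cells.

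Receptors and junction genes added to the epithelial set. The serotonin receptor Htr2c was detected in 63.5% of Ttr-rich cells, 1.82% of Ttr-poor cells and 0.188% of ciliated cells. Slc29a4, a transporter of monoamines, was detected in 75%, 3.64% and 1.76%, but also in 52.9% of neurons. The leptin receptor Lepr was detected in 26.9% of Ttr-rich cells and in 0 of 55 Ttr-poor cells, and the prolactin receptor Prlr in 5.77% of Ttr-rich cells. The simple-epithelium keratins Krt8 and Krt18 were detected in 53.8% and 63.5% of Ttr-rich cells, and in 1.82% and 5.45% of Ttr-poor cells. These shares pool libraries that held unlike numbers of the 2 sets. In DIV5 replicate 1, with 8 Ttr-rich and 21 Ttr-poor cells, both keratins stood at 0 CPM in the selected cells. The tight junction gene Cldn1 was detected in 40.4% of Ttr-rich cells, in 0 of 55 Ttr-poor cells and in 1.57% of ciliated cells. Cdh1, which encodes E-cadherin, gave no UMI in 52 Ttr-rich cells, which allows up to 5.77% of cells with a UMI and likewise sets no limit on expression.

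**Figure D2:**
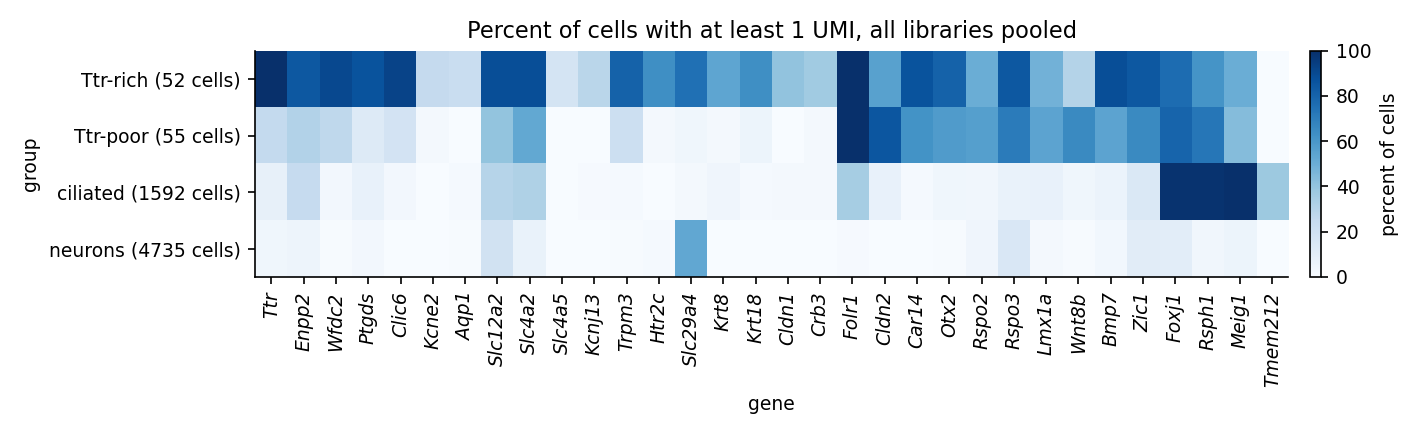
Percent of cells with at least 1 UMI of each of 32 genes, with all libraries pooled and all UMIs of each cell used, in Ttr-rich cells, Ttr-poor cells, ciliated cells and neurons from top to bottom. Genes from Ttr to Crb3 are darker in the Ttr-rich row than in the Ttr-poor row, while those from Folr1 to Zic1 are shaded in both; Tmem212 is shaded in ciliated cells alone (37.6%).

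The Ttr-rich and Ttr-poor cells were compared within the 4 libraries that held at least 3 of each. Levels were CPM of the UMIs summed over the cells of a group and a library, and differences were log2 with 10 CPM added, given with their range over the 4 libraries and with no test. Ttr averaged 43168 CPM in Ttr-rich cells and 62.5 CPM in Ttr-poor cells, which is the difference the boundary made. Vat1l, a gene of unclear role here, averaged 791 CPM in Ttr-rich cells and 14.8 CPM in Ttr-poor cells, a difference of 4.89 (3.78 to 6.97). Enpp2 averaged 495 CPM and 46.7 CPM, a difference of 3.07 (1.61 to 4.18). Slc12a2 averaged 383 CPM in Ttr-rich cells and 49.4 CPM in Ttr-poor cells, a difference of 2.69 (1.44 to 3.88). The fibulin gene Fbln5, which encodes a protein of elastic fibres, averaged 402 CPM and 19.7 CPM, and the insulin gene Ins2 267 CPM and 2.29 CPM. All of these were higher in Ttr-rich cells in each of the 4 libraries.

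A second group of genes was shared by both sets and low elsewhere. Otx2, a transcription factor needed for choroid plexus formation in mice, averaged 149 CPM in Ttr-rich cells, 62.9 CPM in Ttr-poor cells and 6.39 CPM in ciliated cells of the same 4 libraries. Car14, a membrane-bound carbonic anhydrase, averaged 246, 146 and 2.78 CPM in the same order. Several signalling genes of the dorsal midline were also present in both sets. Rspo3, an amplifier of Wnt signals, averaged 134 CPM in Ttr-rich cells, 291 CPM in Ttr-poor cells and 15.7 CPM in ciliated cells. Wnt8b, a Wnt ligand of the cortical hem, averaged 54.1, 130 and 5.60 CPM, and Lmx1a, a hem and roof plate transcription factor, 56.4, 75.4 and 8.10 CPM. Bmp7, a ligand of the dorsal midline, averaged 170, 90.6 and 5.45 CPM.

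These midline genes did not divide evenly between the sets. Rspo3 was lower in Ttr-rich cells in each of the 4 libraries, by 1.09 on average (−1.68 to −0.33). Wnt8b was lower by 1.70 on average, with a range that crossed 0 (−3.27 to 0.08). Otx2 was higher in Ttr-rich cells in each of the 4 libraries, by 1.05 on average (0.33 to 1.65). Car14 and Bmp7 were higher on average, by 0.72 (−0.25 to 1.71) and 0.93 (−0.09 to 2.12), with ranges that crossed 0. Wnt3a, another hem ligand, was detected in 0 of 52 Ttr-rich cells and in 5 of 55 Ttr-poor cells, and Gdf7, a ligand of the roof plate, in 0 cells of either set.

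Ttr-poor cells carried more transcripts of radial glia. Fabp7, a fatty acid binding protein of radial glia, averaged 77.6 CPM in Ttr-rich cells, 1231 CPM in Ttr-poor cells and 590 CPM in ciliated cells. The glial filament gene Gfap averaged 511, 3478 and 3234 CPM, with Ttr-rich cells lower than Ttr-poor cells by 2.69 (−4.28 to −1.27). The water channel Aqp4 averaged 65.3, 375 and 432 CPM, and Mt1, which encodes a metal-binding protein, 1984, 7465 and 17584 CPM. Top2a, a topoisomerase of dividing cells, averaged 40.1, 195 and 123 CPM, but the 28 division genes together did not keep that order. Their sum was lower in Ttr-rich than in Ttr-poor cells in DIV3 replicate 2 (1509 and 4603 CPM) and DIV5 replicate 1 (3463 and 4883 CPM). It was higher in Ttr-rich cells in both DIV7 libraries (2999 and 2366 CPM, then 2453 and 1524 CPM). Over 10 marker genes of radial glia and astrocytes, the median was 6 UMIs per Ttr-rich cell and 49 UMIs per Ttr-poor cell. Each of the 10 was detected in both sets.

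**Figure D3:**
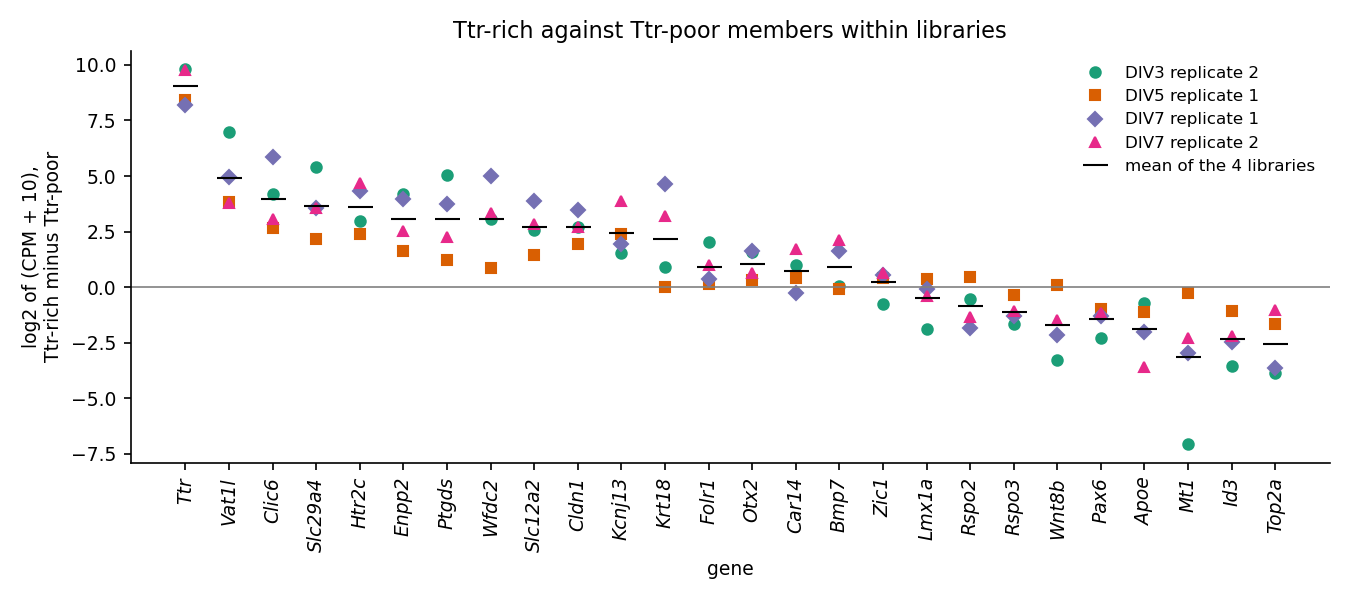
Difference between Ttr-rich and Ttr-poor cells in log2 of (CPM + 10) for 26 genes in the 4 libraries with at least 3 cells of each, 1 coloured symbol per library and a black bar for the mean. Genes from Ttr to Krt18 lie above 0 except Krt18 at 0 in DIV5 replicate 1, and the genes from Pax6 to Top2a lie below 0. Those from Otx2 to Wnt8b lie on both sides of 0, with Otx2 above and Rspo3 below it in each library.

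Cilium genes showed no constant order between the sets. The 30 motile cilium genes summed to 606 to 1386 CPM in Ttr-rich cells of the 7 libraries and to 305 to 2155 CPM in Ttr-poor cells, against 3727 to 9960 CPM in ciliated cells. The sum was lower in Ttr-rich cells in DIV7 replicate 1, at 663 CPM against 2155 CPM in Ttr-poor cells, and higher in DIV3 replicate 2, at 1006 CPM against 698 CPM. The rule's exclusion had capped 3 of these genes. Foxj1, the transcription factor that drives motile cilia and that the rule did not use, was detected in 76.9% of Ttr-rich cells, 80.0% of Ttr-poor cells and 98.7% of ciliated cells. The ependymal gene Tmem212 was found in 0 of the 107 selected cells and in 37.6% of ciliated cells.

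Markers of other cell types were present in part. The 10 fibroblast and meningeal genes had a median of 8.5 UMIs per Ttr-rich cell and 1 per Ttr-poor cell. Lum, Dpt and Aldh1a2 were at 0 in all 107 cells, while Col1a2 was detected in 80.8% of Ttr-rich cells, 29.1% of Ttr-poor cells and 11.8% of neurons. The 10 mural genes had medians of 7.5 and 2 UMIs, with Abcc9, Myh11 and Higd1b at 0 in both sets. Yet 21 of 52 Ttr-rich cells and 5 of 55 Ttr-poor cells held 20 or more mural UMIs, up to 227 and 42. In Ttr-rich cells the mural sum was highest in the DIV1 library, at 7009 CPM. The 10 endothelial genes had medians of 1.5 and 2 UMIs, with Cldn5, Cdh5, Emcn and Tie1 at 0 in both. The endothelial gene Kdr was not low: it averaged 237 CPM in selected cells and 15.6 CPM in the other cells. The 10 neuron genes had medians of 2 and 4 UMIs. Microglial genes and red blood cell genes had medians of 0 in both sets. Only 6 of the 107 selected cells held under 5 UMIs over the neuron, microglia, fibroblast, endothelial, mural and oligodendrocyte lists together, and the part of droplets with more than 1 cell in this was not tested.

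Cells on the other side of the rule held some of the same transcripts. Among cells outside the selection, 42 had at least 10 Ttr UMIs. In 40 of them, which were also below 10 UMIs of the 3 cilium genes, the median was 44 Ttr UMIs and the median sum over the 5 rule genes was 1 UMI. Htr2c, Kcne2 and Kl were at 0 in all 40, while Gfap was detected in 90% of them and Otx2 in 52.5%. The cilium limit itself removed 35 cells that met the other terms, of which 28 had no Ttr UMI and 2 had 10 or more.

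Sex-linked transcripts, which the rule had not used, are given as counts of cells with no test between the sets. In DIV7 replicate 1, Y-linked transcripts were found in 9 of 11 Ttr-rich cells (81.8%, 95% exact interval 48.2 to 97.7%) and in 1 of 11 Ttr-poor cells, against 14.5% of the other cells (13.2 to 15.8%). In DIV7 replicate 2 they were found in 3 of 3 Ttr-rich cells and 4 of 11 Ttr-poor cells, against 45.6% of other cells. In DIV5 replicate 1 they were found in 4 of 8 Ttr-rich and 13 of 21 Ttr-poor cells, against 43.6% of other cells. In DIV3 replicate 2 they were found in 3 of 3 Ttr-rich and 2 of 6 Ttr-poor cells, against 44.6% of other cells. The share of cells with Y-linked transcripts thus varied between libraries. The intervals treat the cells of 1 library as independent and cover counting error only. Depth differed too, with medians of 16070 UMIs in Ttr-rich cells and 12487 UMIs in all filtered cells of DIV7 replicate 1, and its part was not tested.

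The number of selected cells was small in every library. There were 7 in the DIV1 library. The DIV3 libraries held 22 and 9, the DIV5 libraries 29 and 4, and the DIV7 libraries 22 and 14, with replicate 1 given before replicate 2. As shares of filtered cells these were 0.171% for DIV1, 0.428% and 0.317% for the DIV3 libraries, 0.674% and 0.104% for the DIV5 libraries, and 0.745% and 0.399% for the DIV7 libraries. The DIV5 libraries held both a high and the lowest share, and their exact intervals of 0.452 to 0.967% and 0.0282 to 0.265% did not overlap. Over the 7 libraries the share had Pearson's r of 0.544 with day (exact two-sided permutation test, p = 0.203) and Spearman's rho of 0.477 (exact permutation p = 0.279). Without DIV1 and 1 of the 4 next most distant libraries, r ranged between 0.0551 and 0.516. A change of the share with day was not detectable with these libraries. The rule depends on depth: of 105 selected cells with at least 3000 UMIs, 19 still met it after thinning to that number.

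The Ttr-rich portion differed widely between replicates of the same day, and its trend over days was not tested. Of the selected cells, 71.4% were Ttr-rich in the DIV1 library, 90.9% and 33.3% in those of DIV3, 27.6% and 50% in those of DIV5, and 50% and 21.4% in those of DIV7. The DIV3 replicates held the highest portion and 1 of the lower ones. This portion stands beside each comparison of days below, since a sum over selected cells mixes both sets, and fewer cells of a set cannot be told apart from less RNA per cell in such sums.

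**Figure D4:**
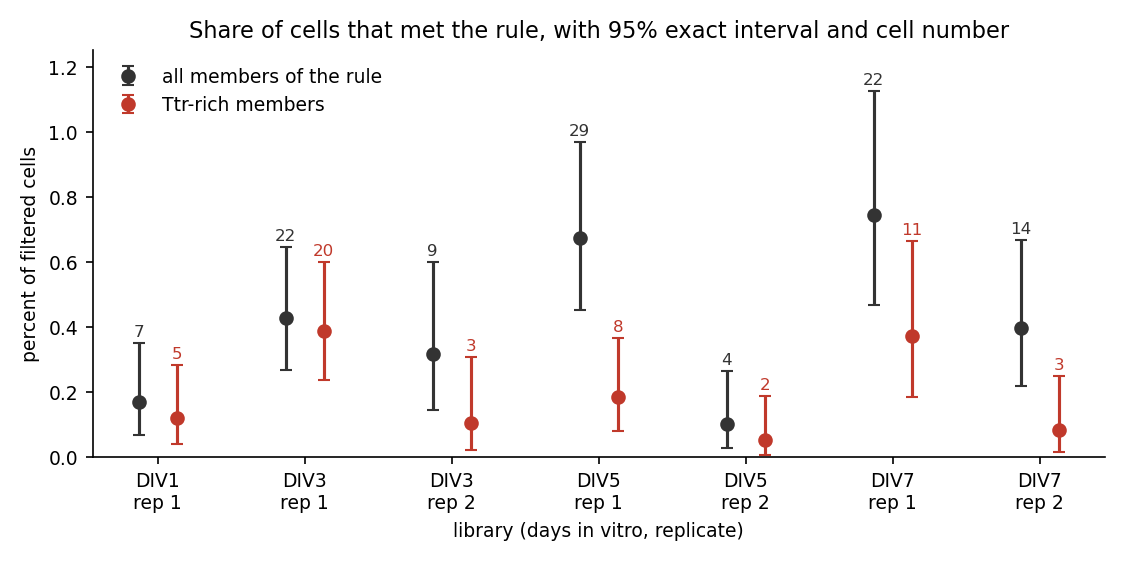
Percent of filtered cells that met the rule (black) and that were Ttr-rich members of it (red) in each of the 7 libraries, with 95% exact intervals for counting error and the number of cells above each. Black points run between 0.104% in DIV5 replicate 2 and 0.745% in DIV7 replicate 1, and red points stay under 0.4%.

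Within Ttr-rich cells alone, Ttr stood at 66651 CPM in the DIV1 library, 20270 and 57490 CPM in those of DIV3, 7659 and 100085 CPM in those of DIV5, and 34821 and 72704 CPM in those of DIV7. The lowest and the highest library were both DIV5 libraries, so the days overlapped. In the same order Enpp2 stood at 366 CPM, then 252 and 596 CPM, then 105 and 1610 CPM, then 623 and 654 CPM. Krt18 stood at 750 CPM at DIV1, at 320 and 186 CPM on day 3, at 0 and 179 CPM on day 5, and at 236 and 81.8 CPM on day 7. For these genes too the replicates of DIV5 lay apart. With only the Ttr-rich cells summed per library, edgeR's quasi-likelihood test called 0 genes between DIV7 and DIV3 at an adjusted p under 0.05, 1 gene between DIV5 and DIV3 and 0 genes between DIV7 and DIV5. Of the 1653 genes tested there, 148, 140 and 44 had an unadjusted p under 0.05. DESeq2 was not run on that subset.

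For the tests between days, UMIs were summed over all selected cells of a library, and the 4 libraries with at least 10 such cells were fitted together with edgeR's quasi-likelihood test. These were DIV3 replicate 1, DIV5 replicate 1 and both DIV7 libraries, so DIV3 and DIV5 rest on 1 library each. The spread came from the 2 DIV7 libraries and from information shared across genes, with 1 residual degree of freedom, and the lone libraries are assumed to vary alike. At a Benjamini-Hochberg adjusted p under 0.05, 610 of 7272 genes (8.39%) differed between DIV7 and DIV3, 358 higher (4.92%) and 252 lower (3.47%). DESeq2 on the same 4 libraries called 64 genes. With all 7 libraries in edgeR's fit the count was 85, and 19 when DIV3 replicate 1 was left out. The share of Ttr-rich cells was 50% and 21.4% in the DIV7 libraries against 90.9% in the DIV3 library, and its part in these results was not tested.

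Glial genes made up the clearest rise. Of the 8 tested astrocyte and radial glia markers, 7 rose and 0 fell at DIV7, against 4.92% and 3.47% of all genes tested. The list median was 3.56 on the log2 scale against 0.05 over all genes tested. Gfap stood at 2324 and 5573 CPM in the DIV7 libraries and at 69.8 CPM in the fitted DIV3 library, with 375 CPM in the other one. It rose by 5.68 ± 0.55 (log2, SE; adjusted p = 1.3e-20 by edgeR), and the DIV7 libraries lay above both DIV3 libraries. With every library fitted, the Gfap difference was 4.30 and did not pass edgeR's test (adjusted p = 0.228), nor did it in Ttr-rich cells alone (3.29). Aldoc, a glycolytic enzyme of astrocytes, stood at 175 and 717 CPM at DIV7 and at 4.11 and 0 CPM at DIV3, a rise of 6.49 ± 0.77 (adjusted p = 2.2e-12 by edgeR). Aqp4 rose by 4.96 ± 0.66, with 337 and 442 CPM at DIV7 and 11 and 16.6 CPM at DIV3. Aldoc and Aqp4 still passed with every library fitted. Gfap over all other cells of the cultures stood at 4737 and 10105 CPM at DIV7 and at 1029 and 932 CPM at DIV3. The 10 glial markers together summed to 4047 and 9278 CPM in the selected cells at DIV7 and to 360 and 1479 CPM at DIV3.

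Metal-binding proteins and Pla2g7 followed them. Mt1 stood at 7663 and 7327 CPM at DIV7 and at 518 and 922 CPM at DIV3, and it rose by 3.71 ± 0.47 (adjusted p = 3.4e-12 by edgeR). Mt2 and Mt3 also rose, and with Mt1 they were the 3 genes of the 15 tested for iron, copper and zinc handling that did. Over all genes tested, 4.92% rose. Pla2g7, which encodes a secreted phospholipase that breaks down platelet-activating factor, stood at 364 and 1571 CPM at DIV7 and at 2.74 and 88.3 CPM at DIV3, and it rose by 8.18 ± 0.85. With every library fitted Mt1 still passed, while Pla2g7 did not (4.92, adjusted p = 0.323 by edgeR). Within libraries, Pla2g7 averaged 170 CPM in Ttr-rich cells and 775 CPM in Ttr-poor cells.

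The other named rises had no UMI in the fitted DIV3 library, so their size is a lower bound against a floor of 3 UMIs in that library. The mitochondrial glutamate carrier Slc25a18 was at least 24.2-fold higher at DIV7, the unnamed gene 4933407L21Rik at least 26.6-fold, the urea transporter Slc14a2 at least 12.9-fold and the GABA transporter Slc6a11 at least 9.82-fold. Pvalb, which encodes parvalbumin, was at least 9.60-fold higher, the BMP antagonist Chrdl1 at least 7.83-fold, Pi15 at least 10.3-fold and Fam216b at least 7.74-fold. Chrdl1 stood at 33.1 CPM in the other DIV3 library, inside the DIV7 range of 26.2 to 38.1 CPM, Pi15 stood there at 11 CPM and Slc14a2 at 5.52 CPM. Ddx3y was at least 21.8-fold higher, and as a Y-linked gene it sits beside the 0 of 22 cells with Y-linked transcripts in the fitted DIV3 library. In the other DIV3 library it stood at 49.7 CPM, against 72.7 and 107 CPM at DIV7.

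Genes of choroid plexus function moved in both directions between these days. Of 23 tested genes of the epithelium, apart from the 5 rule genes, 2 were higher at DIV7 (Igf2 and Car12) and 3 were lower (Otx2, Wfdc2 and Col8a1), against 4.92% and 3.47% of all genes tested, with a median of −0.06. Ttr stood at 18089 and 20394 CPM at DIV7 and at 18654 and 17070 CPM at DIV3, a difference of −0.10 ± 0.37 (adjusted p = 0.907 by edgeR). Enpp2 stood at 337 and 259 CPM at DIV7 and at 234 and 193 CPM at DIV3, a difference of 0.21 ± 0.47 (adjusted p = 0.844 by edgeR). Sostdc1, a secreted antagonist of BMP and Wnt signals, differed by −0.06 ± 0.56, Aqp1 by −0.48 ± 1.02 and Kcnj13 by 0.43 ± 1.07, none past the test. Tmem72 differed by 1.49 ± 0.75 and did not pass either. The standard errors of Aqp1 and Kcnj13 exceeded 1 on the log2 scale, so a change of that size was not detectable in them. In simulated counts for these 4 libraries, the same fit called 8% of genes changed 2-fold and 84% of those changed 8-fold. A 2-fold change could therefore go uncalled in the other genes of this paragraph too.

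Some epithelial genes were lower at DIV7. Wfdc2 stood at 262 and 175 CPM at DIV7 and at 1068 and 419 CPM at DIV3, and it fell by 2.42 ± 0.43 (adjusted p = 2.4e-06 by edgeR). With every library fitted Wfdc2 did not pass (−1.79, adjusted p = 0.101 by edgeR), and without DIV3 replicate 1 it was −0.81. Otx2 stood at 87.3 and 38.1 CPM at DIV7 and at 204 and 143 CPM at DIV3, and it fell by 1.73 ± 0.49 (adjusted p = 0.011 by edgeR). Krt18 and Krt8 fell by 2.00 ± 0.48 and 2.18 ± 0.56. Otx2, Krt18 and Krt8 did not pass with every library fitted or with DESeq2 on the 4 libraries. Krt18 stood at 122 and 22.9 CPM at DIV7 and at 296 and 121 CPM at DIV3, so the higher DIV7 library and the lower DIV3 library were level. Of 21 tested ion and water transport genes, 6 rose and 0 fell, among them Slc4a4, Aqp4 and Car12. Aqp4 is known from astrocytes, and Car12 is a carbonic anhydrase of the epithelium. Of 24 transcription factor and patterning genes, 2 rose (Hes1 and Sox9, both known from neural progenitors and glia) and 2 fell (Otx2 and Bmp4). Of 16 solute transporters, Slc39a12, a zinc transporter, rose and Slc29a4 fell. Of 13 motile cilium genes, Spag6l rose and none fell. Of 36 nuclear genes of oxidative phosphorylation, 0 rose and 3 fell. Over all genes tested, 4.92% were higher and 3.47% lower, so the small counts are a description and no result about these lists.

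Interferon-induced genes made up the clearest fall. Of 18 tested, 10 were lower at DIV7 and 0 higher, against 3.47% and 4.92% of all genes tested, with a median of −2.01. Isg15 stood at 2.91 and 7.62 CPM at DIV7 and at 351 CPM in the fitted DIV3 library, where all 22 selected cells held it, and it fell by 6.43 ± 0.71 (adjusted p = 5.3e-16 by edgeR). The DIV3 library outside the fit stood at 11 CPM, near the DIV7 libraries, and without DIV3 replicate 1 the difference was −1.12 and did not pass. Bst2 stood at 122 and 15.2 CPM at DIV7, and at 1115 CPM in the fitted and 93.8 CPM in the other DIV3 library. Ifitm3 stood at 649 and 671 CPM at DIV7 and at 2822 and 944 CPM at DIV3. The high level was a feature of DIV3 replicate 1 and not of both DIV3 libraries. The other cells of that library had Bst2 at 750 CPM, against 54.4 to 152 CPM in the other 6 libraries.

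Acute phase genes followed the same library. Of 20 tested, 8 fell and 1 rose, against 3.47% and 4.92% of all genes tested. Lcn2, a siderophore-binding protein of inflammation, stood at 2.91 and 0 CPM at DIV7, at 383 CPM in the fitted DIV3 library and at 0 CPM in the other, and it fell by 7.49 ± 0.78. Without DIV3 replicate 1 its difference turned to 2.15. In that library 15 of 22 selected cells held Lcn2, and its other cells stood at 323 CPM. Saa3 stood at 11.6 and 0 CPM at DIV7 and at 238 and 0 CPM at DIV3, but 98 of its 174 UMIs in the fitted DIV3 library came from 1 cell. Crct1 was at least 3.23-fold lower at DIV7, and 30 of its 54 UMIs at DIV3 came from 1 cell.

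The remaining named falls were Cyba, a subunit of the phagocyte oxidase, Gabra2, Ddx39 and the division genes Pbk and Birc5. Cyba stood at 17.5 and 0 CPM at DIV7 and at 162 and 33.1 CPM at DIV3. Birc5, which encodes the mitotic regulator survivin, stood at 11.6 and 0 CPM at DIV7 and at 90.4 and 93.8 CPM at DIV3, and it fell by 3.58 ± 0.71 (adjusted p = 4.3e-05 by edgeR). It did not pass with every library fitted or with DESeq2. Of all genes tested, 3.47% fell. Of 25 tested division genes, 6 fell and 0 rose. Of 25 tested contractile and mesenchymal genes, 8 fell and 0 rose, among them Acta2, Tagln and Lgals1. Beside them, the 10 mural markers summed to 486 and 229 CPM at DIV7 and to 1221 and 745 CPM at DIV3, and the part of those markers in the result was not tested.

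**Figure D5:**
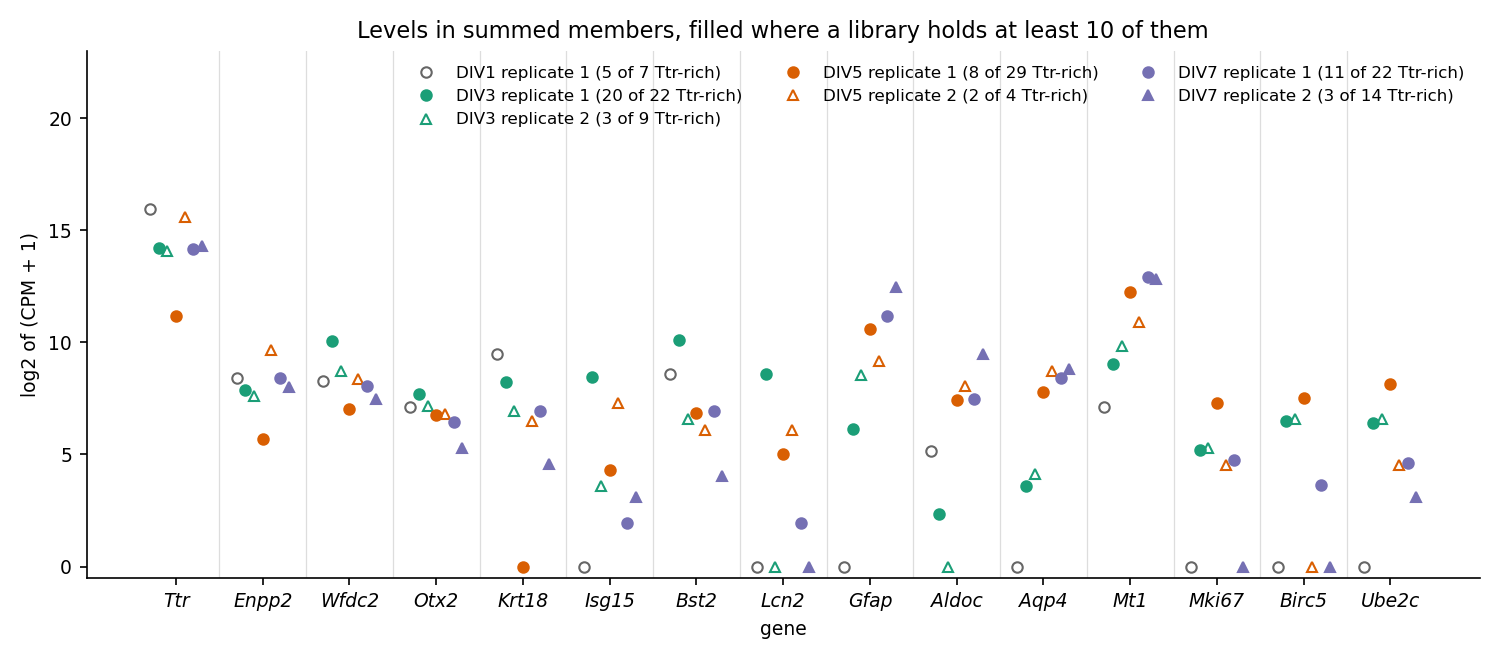
Level of 15 genes in the summed selected cells of each library as log2 of (CPM + 1), coloured by day, with circles for replicate 1 and triangles for replicate 2, filled where the library held at least 10 selected cells. Gfap, Aldoc, Aqp4 and Mt1 are higher at DIV7 than in both DIV3 libraries, while Isg15 and Lcn2 are high in DIV3 replicate 1 and at 11 and 0 CPM in DIV3 replicate 2.

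The genes called by day were set beside their difference between Ttr-rich and Ttr-poor cells. Of the 358 genes higher at DIV7 than at DIV3, 302 were lower in Ttr-rich than in Ttr-poor cells, with a median difference of −0.92, against 4509 of all 7272 genes tested and a median of −0.18. Of the 252 genes lower at DIV7, 158 were lower in Ttr-rich cells, with a median of −0.16, close to that of all genes. For DIV5 against DIV3, 220 of 239 higher genes were lower in Ttr-rich cells (median −1.18). There 92 of 144 lower genes were higher in Ttr-rich cells (0.28), against 2762 of all 7272. For DIV7 against DIV5, 25 of 34 higher genes were higher in Ttr-rich cells (1.52). Of its 71 lower genes, 65 were lower in Ttr-rich cells (−1.10). The 2 measures share libraries, so these counts are a description.

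Between DIV5 and DIV3, 383 of 7272 genes (5.27%) differed, 239 higher (3.29%) and 144 lower (1.98%), with 1 library on each side. DESeq2 called 30 genes, and edgeR with all 7 libraries 37. The Ttr-rich share was 27.6% of the cells in the DIV5 library and 90.9% in the DIV3 library, and its part was not tested. Ttr stood at 2339 CPM at DIV5 and at 18654 CPM at DIV3, and it fell by 3.23 ± 0.46 (adjusted p = 3.5e-09 by edgeR). The libraries outside the fit stood at 49589 CPM at DIV5 and 17070 CPM at DIV3, the opposite order, and with all 7 libraries fitted the difference was 0.44. Of these, DIV5 replicate 2, with 4 selected cells, decided the sign: without it the difference was −3.01. Wfdc2 fell by 3.25 ± 0.55, with 131 CPM at DIV5 and 1068 CPM at DIV3. In the libraries outside the fit it stood at 331 CPM at DIV5 and 419 CPM at DIV3, and with every library its difference was −2.00 and did not pass. Of the 23 tested genes of the epithelium, 6 fell and 0 rose: Ttr, Enpp2, F5, Wfdc2, Spint2 and Col8a1.

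Keratins were missing from the fitted DIV5 library. Krt18 was at least 46.5-fold lower and Krt8 at least 21.3-fold lower than at DIV3, against a floor of 3 UMIs. In the other DIV5 library, of 4 selected cells, Krt18 stood at 88.3 CPM. Barx2, a homeobox gene, was at least 8.18-fold lower, the muscle myosin gene Myh2 at least 6.24-fold, and Lce1g at least 7.53-fold with all 35 of its UMIs in 1 cell. The glial genes rose here too, Gfap by 4.23 ± 0.53, Aldoc by 5.07 ± 0.79 and Pla2g7 by 6.18 ± 0.86, and 7 of 8 astrocyte markers passed. With every library fitted Aldoc still passed, while Gfap (2.38, adjusted p = 0.552 by edgeR) and Pla2g7 (2.75) did not. Gfap stood at 574 CPM at DIV5 and 375 CPM at DIV3 in the libraries outside the fit. Prune2 rose by 5.27 ± 1.00 and Mgat5 by 5.23 ± 1.00, and Zhx2 was at least 11.4-fold higher. In the libraries outside the fit, Zhx2 stood at 0 CPM at DIV5 and 22.1 CPM at DIV3, and Prune2 at 22.1 CPM at DIV5 and 16.6 CPM at DIV3. The floor of 3 UMIs in that DIV5 library was 66.2 CPM, so these values give no order. The proliferation marker Mki67 stood at 157 CPM at DIV5 and at 35.6 CPM at DIV3, and it rose by 1.90 ± 0.60 (adjusted p = 0.035 by edgeR). In the libraries outside the fit Mki67 stood at 22.1 CPM at DIV5 and 38.6 CPM at DIV3. The DIV5 value lies under the same floor of 66.2 CPM, so their order could not be read. Mki67 did not pass with every library fitted. In the fitted libraries Top2a, Ccna2 and Rrm2 rose with Mki67, 4 of the 25 tested division genes, and 0 fell. Over all genes tested, 3.29% rose and 1.98% fell.

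Between DIV7 and DIV5, 105 of 7272 genes (1.44%) differed, 34 higher (0.468%) and 71 lower (0.976%). The Ttr-rich share was 50% and 21.4% at DIV7 against 27.6% at DIV5, and its part was not tested. DESeq2 called 1 gene. With all 7 libraries fitted by edgeR, 0 genes passed and 232 had an unadjusted p under 0.05, and DESeq2 also called 0 there. Division genes were lower at DIV7: 13 of 25 tested fell and 0 rose, with a median of −2.57 against 0.02 over all genes. Ube2c, which marks cyclins for degradation in mitosis, stood at 23.3 and 7.62 CPM at DIV7 and at 284 CPM at DIV5, and it fell by 3.87 ± 0.58 (adjusted p = 1.1e-07 by edgeR). Mki67 fell by 3.05 ± 0.62, with 26.2 and 0 CPM at DIV7 against 157 CPM at DIV5. Among the named falls, Prc1, Nusap1, Pimreg and Pbk act in mitosis, while Mapt encodes the neuronal protein tau. In the DIV5 library that stayed outside the fit, Ube2c and Mki67 both stood at 22.1 CPM. The floor of 3 UMIs there was 66.2 CPM, so their place against the DIV7 libraries could not be read. The 10 neuron markers summed to 256 and 320 CPM at DIV7 and to 740 CPM in the fitted DIV5 library, and their part in the fall of Mapt was not tested.

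Epithelial genes were higher at DIV7 than in the fitted DIV5 library. Ttr stood at 18089 and 20394 CPM at DIV7 and at 2339 CPM at DIV5, and it rose by 3.12 ± 0.44 (adjusted p = 5.5e-09 by edgeR), while the other DIV5 library stood at 49589 CPM. Without a minimum of 10 cells per library the difference in Ttr was −0.32, and 3.13 when DIV5 replicate 2 was then left out. Of the 23 tested genes of the epithelium, 5 rose and 0 fell, against 0.468% and 0.976% of all genes tested. The 5 were Ttr, Enpp2, Igf2, Col8a1 and Htr2c. Krt18 was at least 11.4-fold higher. Other named rises were Ccl2 by 4.44 ± 1.01, 2200002D01Rik by 4.15 ± 1.04 and Igf1 by 3.56 ± 0.91. Ccl2 and Igf1 stood at 265 and 110 CPM in the other DIV5 library, above both DIV7 libraries.

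DIV3 and DIV1 could not be compared in the same way, since DIV1 held 7 selected cells. With every library fitted, edgeR called 1 of 5173 genes and DESeq2 called 3, with 458 and 155 genes at an unadjusted p under 0.05. At DIV1 the 5 Ttr-rich cells already held Ttr at 66651 CPM, Krt8 at 1190 CPM and Krt18 at 750 CPM.

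The change between DIV7 and DIV3 was then set against the change in ciliated ependymal cells of the same 4 libraries, as an interaction in 1 edgeR fit with library as a block. It differed for 324 of 12645 genes (2.56%), 210 more positive and 114 more negative in the selected cells. Gfap rose more in the selected cells, by 3.76 (adjusted p = 0.034 by edgeR): ciliated cells stood at 4421 and 4054 CPM at DIV7 and already at 1368 CPM in the fitted DIV3 library. Isg15 fell more, by 2.92 (adjusted p = 0.018 by edgeR), with ciliated cells at 33.8 and 24.9 CPM at DIV7 and 410 CPM in the fitted DIV3 library. The Ttr difference was −2.87 (adjusted p = 3.5e-12 by edgeR), with ciliated cells at 19.8 and 18.8 CPM at DIV7 and 3.10 CPM at DIV3. In selected cells Ttr was level, at 18089 and 20394 CPM at DIV7 and 18654 CPM at DIV3. The levels that differed were the low ones in ciliated cells. A Ttr UMI was found in 12.6% and 10.3% of neurons at DIV7 and 4.98% in the fitted DIV3 library. The part of free transcript was not tested. Nor was that of the Ttr-rich share, 50% and 21.4% at DIV7 against 90.9% at DIV3. For Bst2, Lcn2 and Ifitm3 the difference between the classes did not pass the test.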

How the data were processed

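Droplet single-cell libraries (10x 3′ chemistry, version 2) were made from cultured hippocampal cells, 1 at DIV1 and 2 each at DIV3, DIV5 and DIV7. The authors deposited, per library, a matrix of raw UMI counts per gene and barcode. Cell Ranger 4.0.0 and build mm9 are named per the submitters' processing notes, while version 3.0.2 stands in the matrices per the file headers. Libraries held 3009 to 5401 barcodes and 36226566 to 114119537 UMIs; intervals and floors cover counting error only.

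The members and gene lists were chosen with earlier results of these data known. The selection rule was applied to every barcode. Ciliated cells and neurons were compared as classes: ciliated cells had at least 10 UMIs of Ccdc153, Rsph1 and Meig1, and neurons had at least 10 UMIs of Stmn2, Snap25 and Syt1, all outside the selection. No doublet caller was run; a count without cells that held markers of other types replaced it. Shares have exact (Clopper-Pearson) 95% intervals, and a share of 0 an upper limit of 3 counts. Detection was also computed after thinning each cell to 3000 UMIs, leaving out shallower cells.

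UMIs were summed per library and class. Libraries with at least 10 members were fitted with edgeR 4.0.16 (filterByExpr, TMM scaling, robust quasi-likelihood test, Benjamini-Hochberg adjustment) in R 4.3.3, with DESeq2 1.42.0 as an alternative; the scripts were tested on simulated data. The residual spread measures the difference between these libraries, which may be technical. Levels are plain CPM of the sums, while fold changes use TMM scaling. UMIs count transcript ends, so levels were compared within genes. Genes with 0 UMIs on one side are given as bounds against 3 counts in the library or summed libraries of that day. Genes were named as the 10 largest rises and 10 largest falls between DIV7 and DIV3 (5 in other comparisons and in each direction of the interaction) among called genes that averaged 20 CPM or more and whose fitted libraries did not overlap between the days. Marker genes and, per list, those with the smallest p or highest CPM could also be named; predicted, ribosomal, haemoglobin and mitochondrial genes were left out. Genes named for Ttr-rich or Ttr-poor cells, and the boundary between these sets, were chosen after their values were seen. Values of a few named genes are not reported here.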

Additional observations from a re-analysis of the deposited data

Results flagged for a closer look

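The log2 change between DIV7 and DIV3 differed between the selected cells and ciliated cells of the same libraries, by an interaction test in edgeR, for the 10 genes named here. DIV3 rests on 1 library, and each value is the change in selected cells minus that in ciliated cells. Pvalb had a difference of 9.99, Slc25a18 of 9.80, Chrdl1 of 8.84, Slc14a2 of 8.78 and 4933407L21Rik of 8.37. All 5 were at 0 in the selected cells of DIV3 replicate 1, so these fitted sizes depend on the prior count and are no bounds. Pvalb stood at 40.7 and 38.1 CPM in selected cells at DIV7, and in ciliated cells at 338 and 564 CPM at DIV7 against 541 CPM in the DIV3 library. Slc25a18 stood at 84.4 and 114 CPM in selected cells at DIV7, and in ciliated cells at 205 and 213 CPM against 101 CPM. A830018L16Rik had a difference of −5.81, Saa3 of −3.99, Mrln of −3.65, Cmtm7 of −3.27 and Ddx39 of −3.18. Cmtm7 stood at 26.2 and 22.9 CPM in selected cells at DIV7 against 130 CPM at DIV3, while ciliated cells stood at 6.63 and 4.56 CPM against 3.88 CPM. For Saa3, most of the UMIs at DIV3 came from 1 selected cell.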

How the results depend on the processing

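Counts of genes past the test are given in the order DIV7 against DIV3, DIV5 against DIV3 and DIV7 against DIV5, with 610, 383 and 105 reported. DESeq2 gave 64, 30 and 1. The fits with every library, those that leave out a library from them, the block in that form and the Ttr-rich cells alone were chosen after seeing the data. With every library and no minimum of cells, edgeR gave 85, 37 and 0 and DESeq2 42, 18 and 0. Leaving out each library from edgeR's fit of every library gave 19 to 286, 4 to 181 and 0 to 43 genes. Without DIV3 replicate 1 the counts were 19, 4 and 0, without DIV3 replicate 2 they were 270, 181 and 7, and without DIV5 replicate 2 they were 286, 110 and 43. Ttr-rich cells alone gave 0, 1 and 0. The replicate number as a block gave 86, 39 and 1, in all DIV3, DIV5 and DIV7 libraries. Deviations of same-numbered libraries correlated at −0.047, 0.180 and −0.015. With 2 libraries per day and as few as 4 selected cells in a library, these values cannot decide whether the numbers pair the samples. Total-count scaling gave 579, 442 and 100 genes and no low-count filter 424, 271 and 85. Leaving out the library of the day not compared from the 4 fitted gave 550 genes for DIV7 against DIV3 and 94 for DIV7 against DIV5.

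Some genes changed direction. Ttr between DIV5 and DIV3 was 0.44 with every library, 0.53 with DESeq2 there, 0.72 in Ttr-rich cells and −3.01 to 1.34 with a library left out (−3.01 without DIV5 replicate 2, above 0 without each of the others). Ttr between DIV7 and DIV5 was −0.32, −0.37 and −0.13 in the same settings and −1.16 to 3.14 with a library left out (below 0 except without DIV5 replicate 2, and 3.14 without DIV3 replicate 1 among the 4 libraries). Ccl2 between DIV7 and DIV5 was −0.13 with every library, −1.07 with DESeq2 there, −0.064 with the replicate block and −2.16 to 4.43 with a library left out (below 0 except without DIV5 replicate 2 or DIV7 replicate 1). In that comparison Igf1 was −0.96 to 3.54 and Pbk −7.78 to 3.72 with a library left out, reversed without DIV5 replicate 1. Lcn2 between DIV7 and DIV3 was −8.84 to 2.15, reversed without DIV3 replicate 1. The libraries left out hold the levels given for them above, and the cause was not tested otherwise. Of 31 named genes of DIV7 against DIV3 that could be fitted with every library, 19 had passed and no longer did. The other 12 stayed on the same side of the threshold, which counts genes that passed in neither fit as well.

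The interaction count of 324 was 359 by total counts, 241 with no filter and 224 with every library. The correlation of the share with day stayed above the 0.05 threshold in p throughout, with r between 0.335 and 0.736 when a library was left out. The stricter rule, the 5% mitochondrial limit, cells without other markers and thinned cells left too few libraries with 10 cells for any comparison of days, and were not run. Leaving out a DIV7 library from the 4 left no residual degree of freedom, and DIV5 against DIV3 alone had none.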
